A study of Mus musculus with 6 samples.

Results

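The 10 genes described here belong to the Notch pathway and were chosen by symbol: the receptors Notch1, Notch2, Notch3 and Notch4, the ligands Jag1, Jag2, Dll1 and Dll4, and the target genes Hes1 and Hey1. All 10 had a single row among the 23099 gene symbols of the series. They were measured by stranded RNA-seq of polyadenylated RNA from whole pancreas of 8-week-old mice, in 3 Ela1-Myc libraries and 3 wild-type (WT) libraries. In Ela1-Myc mice the promoter of the elastase 1 gene, which is active in the enzyme-secreting acinar cells, drives the growth-promoting transcription factor Myc. WT pancreas carries no such transgene. Sex and strain are not given in the labels, nor is it said that each library is 1 animal, so p-values measure only the spread between these libraries. The comparison asks how the adult pancreas differs when Myc is kept on in acinar cells.

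Notch receptors sit in the cell membrane and are activated by Jagged and Delta-like ligands on a neighbouring cell. Activation leads to cleavage of the receptor, and the freed intracellular domain enters the nucleus, joins the DNA-binding protein Rbpj and switches on repressors of the Hes and Hey families. In the developing pancreas Notch signalling holds back differentiation of progenitor cells. In the adult organ Hes1 is known from centroacinar and duct cells, while Dll4, Notch4 and Hey1 are best known from blood vessels and Notch3 from the contractile cells around them. Whole tissue was sequenced, so fewer cells of a type and less RNA per cell cannot be told apart.

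Values are the authors' adjusted FPKM (fragments per kilobase of transcript) divided by 100000, hereafter the deposited scale. A value listed at 0 is not evidence of absence. Among 8802 genes with a mean of at least 1, between 592 and 1426 were listed at 0 in each WT library, against 0 to 29 in each Ela1-Myc library. WT replicate 1 stood apart, in that all 6 islet markers were listed at 0 there. The RNA integrity number was 8.8, 7.2 and 8.3 in Ela1-Myc replicates 1 to 3 and 7.3, 7.3 and 7.1 in WT replicates 1 to 3. Myc itself measured 52.0, 34.4 and 34.2 in Ela1-Myc replicates 1 to 3, against 4.10 in WT replicate 2, and was listed at 0 in the other WT libraries. The pancreas label held in all libraries: the 7 acinar markers were above 0 in each of the 6. Digestive enzyme genes made up 63.1% to 76.0% of the summed values in Ela1-Myc libraries and 92.1% to 93.7% in WT libraries. The median log2 change of the tested genes on the deposited scale was 1.22. Each main result is therefore also given after median-of-ratios scaling, which brings the typical gene to a common level and left a median of 0.22.

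RefSeq promoter windows, from 250 bases before to 50 bases after the transcription start on GRCm38.p6, were at hand for 8 of the 10 genes. They covered the 4 receptors and the 4 ligands, with none for the target genes Hes1 and Hey1. Those printed here, 5′ to 3′ on the gene's strand, are those of the 3 receptors and ligands that passed the test on the deposited scale and of Dll4, whose groups stayed apart on both scales. They lie at chr2:26503773-26504072, minus strand, for Notch1, chr3:98013288-98013587, plus strand, for Notch2, chr2:137116471-137116770, minus strand, for Jag1 and chr2:119325534-119325833, plus strand, for Dll4. Capitals mark GGGCGG on either strand, the GC box bound by Sp1-family factors.
Notch1: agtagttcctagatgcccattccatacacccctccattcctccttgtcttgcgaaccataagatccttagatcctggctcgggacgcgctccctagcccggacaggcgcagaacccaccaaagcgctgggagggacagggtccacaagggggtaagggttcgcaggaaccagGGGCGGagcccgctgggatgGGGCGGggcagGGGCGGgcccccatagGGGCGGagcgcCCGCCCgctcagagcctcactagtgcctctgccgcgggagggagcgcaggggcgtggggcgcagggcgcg
Notch2: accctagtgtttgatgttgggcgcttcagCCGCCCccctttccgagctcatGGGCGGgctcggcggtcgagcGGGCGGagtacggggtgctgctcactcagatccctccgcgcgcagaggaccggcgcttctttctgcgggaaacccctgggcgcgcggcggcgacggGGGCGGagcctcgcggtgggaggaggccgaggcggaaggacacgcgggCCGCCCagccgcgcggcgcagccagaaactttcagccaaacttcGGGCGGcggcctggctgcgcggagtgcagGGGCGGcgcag
Jag1: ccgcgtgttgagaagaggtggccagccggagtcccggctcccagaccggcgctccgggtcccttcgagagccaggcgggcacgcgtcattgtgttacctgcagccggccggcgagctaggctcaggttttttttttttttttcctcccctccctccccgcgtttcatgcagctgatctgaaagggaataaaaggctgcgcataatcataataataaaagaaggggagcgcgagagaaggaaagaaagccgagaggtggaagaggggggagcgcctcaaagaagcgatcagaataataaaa
Dll4: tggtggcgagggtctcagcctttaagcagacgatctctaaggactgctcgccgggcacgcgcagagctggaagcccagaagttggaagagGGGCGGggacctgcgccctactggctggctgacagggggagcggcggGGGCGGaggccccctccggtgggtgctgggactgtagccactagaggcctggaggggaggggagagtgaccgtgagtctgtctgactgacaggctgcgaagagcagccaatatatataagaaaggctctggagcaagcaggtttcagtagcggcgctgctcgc
The Notch2 window held 7 GC boxes, the Notch1 window 5 and the Dll4 window 2, while the Jag1 window held none. Over the 8 genes, 5 had at least 1 GC box, against 35.7% of all 32851 mouse promoter windows of this length. None of the 8 genes' windows held CACGTG, the core letters bound by Myc with its partner Max (7.15% of all windows), or TGGGAA, the core letters bound by Rbpj (25.6% of all windows), on either strand. The absence of these letters applies to these windows alone, and the promoters of Hes1 and Hey1 were not searched. The G and C content was 68.3% for Notch1, 73.0% for Notch2, 63.7% for Dll4 and 55.7% for Jag1.

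On the deposited scale, 4 of the 10 genes reached the mean of 1 needed for the test, and all 4 of them (Notch1, Notch2, Jag1 and Hes1) rose in Ela1-Myc pancreas (limma on log2(value + 1), Benjamini-Hochberg adjusted p below 0.05). Of all genes tested, 70.2% rose and 0.239% fell, so most tested genes did the same. Over the WT libraries Notch1, Notch2 and Jag1 averaged 0.751, 0.351 and 0.575, so they passed the filter through Ela1-Myc, while Hes1 averaged 1.28. A low gene that passes the filter in this way is favoured to be higher in Ela1-Myc, so the count of 4 lends no support by itself. Without Ela1-Myc replicate 3, 2 of the 4 were called. Their median log2 change of 1.03 lay under the 1.22 of all tested genes. After median-of-ratios scaling limma called none of the 4 in either direction, with none at an unadjusted p under 0.05, where 17.1% of the tested genes were called higher and 7.1% lower. The median of the 4 was then 0.05, and 2 of them, Jag1 and Hes1, had turned to just under 0. Without regard to a test, 9 of the 10 genes were higher in all 3 Ela1-Myc libraries than in all 3 WT libraries, against a background of 60.9% of 18853 genes, and none was lower throughout (background 3.06%). After scaling 2 of the 10 remained apart, Dll4 and Hey1, against a background of 25.1%, and again none was lower throughout (background 14.8%).

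**Figure D1:**
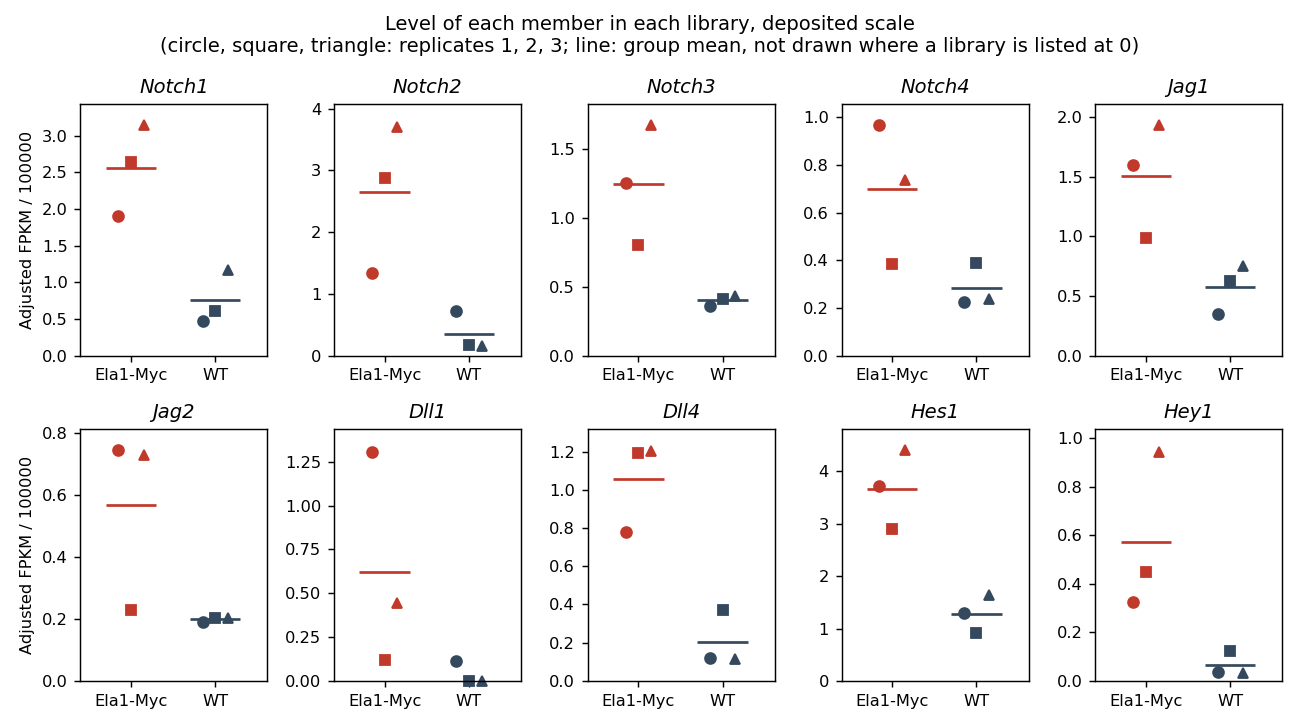
Level of each of the 10 Notch pathway genes as adjusted FPKM divided by 100000 (vertical axes, linear, from 0) in the 3 Ela1-Myc and 3 WT libraries; symbols are replicates and lines are group means, left out where a library is listed at 0. In 9 of the 10 panels every Ela1-Myc library lies above every WT library, and Notch4 is the exception.

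Among the receptors, Notch1 (chromosome 2, 26457902 to 26503822, GRCm38) and Notch2 (chromosome 3, 98013538 to 98150367) were the most abundant per transcript length in Ela1-Myc pancreas. Notch1 measured 1.90, 2.63 and 3.14 in Ela1-Myc replicates 1 to 3, against 0.476, 0.614 and 1.16 in WT replicates 1 to 3. The groups did not overlap. The means were 2.56 ± 0.621 in Ela1-Myc and 0.751 ± 0.365 in WT (SD, n = 3 each), a ratio of 3.41, and the log2 change was 1.03 ± 0.278 (SE, limma adjusted p = 0.00529). After scaling the Notch1 values were 1.16, 1.68 and 1.47 in Ela1-Myc and 1.15, 0.688 and 1.91 in WT. The scaled groups overlapped throughout, with the highest value in WT replicate 3, and the change of 0.14 ± 0.233 (SE) did not pass the test (adjusted p = 0.663).

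Notch2 had a larger ratio between the group means than Notch1 and a wider spread in Ela1-Myc. It measured 1.34, 2.88 and 3.71 in Ela1-Myc replicates 1 to 3, against 0.723, 0.168 and 0.161 in WT replicates 1 to 3. The means of 2.64 ± 1.20 in Ela1-Myc and 0.351 ± 0.322 in WT (SD, n = 3 each) differed 7.53-fold, and the log2 change was 1.40 ± 0.303 (SE, limma adjusted p = 0.00138). WT replicate 1 was the high one of its group. After scaling the Ela1-Myc values were 0.815, 1.83 and 1.73 and the WT values were 1.74, 0.189 and 0.264, so that WT replicate 1 lay inside the Ela1-Myc range. The scaled change of 0.59 ± 0.361 (SE) did not pass (adjusted p = 0.258). Without WT replicate 1 it was 1.06 and passed (adjusted p = 0.0315), the single scaled call that any of the 4 genes gave when 1 library was left out. The same WT library stood out in lymphocyte markers and in markers of mural cells, the contractile cells around vessels. The scaled mural sums were 26.0, 7.46 and 7.85 in WT replicates 1 to 3. After scaling it was also the highest WT library in endothelial, fibroblast and macrophage markers, but not in acinar, duct or islet markers. The 7 lymphocyte genes summed to 14.1, 128 and 80.5 in Ela1-Myc and to 32.1, 0.419 and 0 in WT replicates 1 to 3. Of these 7, none was listed at 0 in WT replicate 1, 6 in WT replicate 2 and 7 in WT replicate 3. The part of lymphocytes or of these other cells in the Notch2 values was not tested.

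Notch3 and Notch4 averaged under 1 and were below the filter. Notch3 (chromosome 17, 32120893 to 32166852) measured 1.26, 0.804 and 1.68 in Ela1-Myc replicates 1 to 3, against 0.357, 0.414 and 0.434 in WT replicates 1 to 3. Its groups were apart, and the WT libraries lay close together (0.402 ± 0.04 SD, n = 3, against 1.25 ± 0.438 in Ela1-Myc). After scaling the Notch3 values were 0.764, 0.511 and 0.784 in Ela1-Myc and 0.861, 0.464 and 0.712 in WT, with means in a ratio of 1.01. Notch4 (chromosome 17, 34564295 to 34588543) measured 0.969, 0.384 and 0.737 in Ela1-Myc replicates 1 to 3, against 0.226, 0.387 and 0.237 in WT replicates 1 to 3. It was the one gene of the 10 whose groups overlapped on the deposited scale, since Ela1-Myc replicate 2 lay just under WT replicate 2. After scaling the Notch4 means stood in a ratio of 0.862, with the WT values inside the Ela1-Myc range.

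Of the ligands, Jag1 alone was tested. Jag1 (chromosome 2, 137081451 to 137116520) measured 1.60, 0.982 and 1.93 in Ela1-Myc replicates 1 to 3, against 0.347, 0.627 and 0.751 in WT replicates 1 to 3. The groups did not overlap, and the log2 change was 0.66 ± 0.254 (SE, adjusted p = 0.0321), the smallest of the 4 tested genes. The Jag1 call was lost without Ela1-Myc replicate 3 (adjusted p = 0.0881) and without WT replicate 1 (0.114), 2 (0.0648) or 3 (0.0570). After scaling Jag1 measured 0.970, 0.625 and 0.903 in Ela1-Myc, against 0.836, 0.702 and 1.23 in WT. Those groups overlapped and the change was -0.07 ± 0.171 (SE, adjusted p = 0.795), while quantile normalization, which forces equal distributions, called Jag1 lower in Ela1-Myc (log2 change -0.62, adjusted p = 0.0357), where 11.3% of tested genes were called higher and 20.0% lower.

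Dll4, the Delta-like ligand of vascular tip cells, had the largest ratio between the groups among the ligands with a value in every library. Dll4 (chromosome 2, 119325784 to 119335666) measured 0.778, 1.20 and 1.20 in Ela1-Myc replicates 1 to 3, against 0.117, 0.373 and 0.114 in WT replicates 1 to 3, and its means of 1.06 ± 0.243 in Ela1-Myc and 0.201 ± 0.149 in WT (SD, n = 3 each) differed 5.25-fold. After scaling the values were 0.473, 0.760 and 0.561 in Ela1-Myc and 0.283, 0.418 and 0.186 in WT. The groups stayed apart, with a ratio of 2.02 between the means. Jag2 (chromosome 12, 112908590 to 112929495) measured 0.745, 0.228 and 0.727 in Ela1-Myc replicates 1 to 3, against 0.190, 0.202 and 0.203 in WT replicates 1 to 3. Ela1-Myc replicate 2 exceeded the WT libraries by little, and after scaling the Jag2 groups overlapped with means in a ratio of 0.922. Dll1 (chromosome 17, 15367354 to 15375823) measured 1.30, 0.119 and 0.445 in Ela1-Myc replicates 1 to 3, against 0.116 in WT replicate 1, and was listed at 0 in WT replicates 2 and 3. Ela1-Myc replicate 1 carried most of the Dll1 signal, and no mean or fold is given because of the listed zeros.

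Of the target genes, Hes1 was tested and Hey1 was below the filter. Hes1 (chromosome 16, 30065357 to 30067796), the repressor read most often as a Notch target in the pancreas, was the most abundant of the 10 genes per transcript length in every library. It measured 3.71, 2.90 and 4.40 in Ela1-Myc replicates 1 to 3, against 1.29, 0.913 and 1.63 in WT replicates 1 to 3. The groups were apart, and the log2 change was 1.04 ± 0.301 (SE, adjusted p = 0.00781). The Hes1 call was lost without Ela1-Myc replicate 3 (log2 change 0.92, adjusted p = 0.0509). After scaling Hes1 measured 2.26, 1.84 and 2.06 in Ela1-Myc, against 3.10, 1.02 and 2.68 in WT. The Ela1-Myc libraries then lay inside the WT range, with a change of -0.04 ± 0.290 (SE, adjusted p = 0.936).

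Hey1 (chromosome 3, 8663359 to 8667038), a target best known from endothelium, was low in all libraries and showed the largest ratio between the groups of the 9 genes with a value in every library. It measured 0.324, 0.450 and 0.942 in Ela1-Myc replicates 1 to 3, against 0.0382, 0.123 and 0.0310 in WT replicates 1 to 3. The means of 0.572 ± 0.327 in Ela1-Myc and 0.0641 ± 0.0512 in WT (SD, n = 3 each) differed 8.93-fold. After scaling the Hey1 values were 0.197, 0.286 and 0.440 in Ela1-Myc and 0.0920, 0.138 and 0.0509 in WT, and the groups remained apart with a ratio of 3.29. Hey1 amounted to 8.74%, 15.5% and 21.4% of Hes1 in Ela1-Myc and to 2.96%, 13.5% and 1.90% in WT, where the ranges overlapped because of WT replicate 2 and Ela1-Myc replicate 1.

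**Figure D2:**
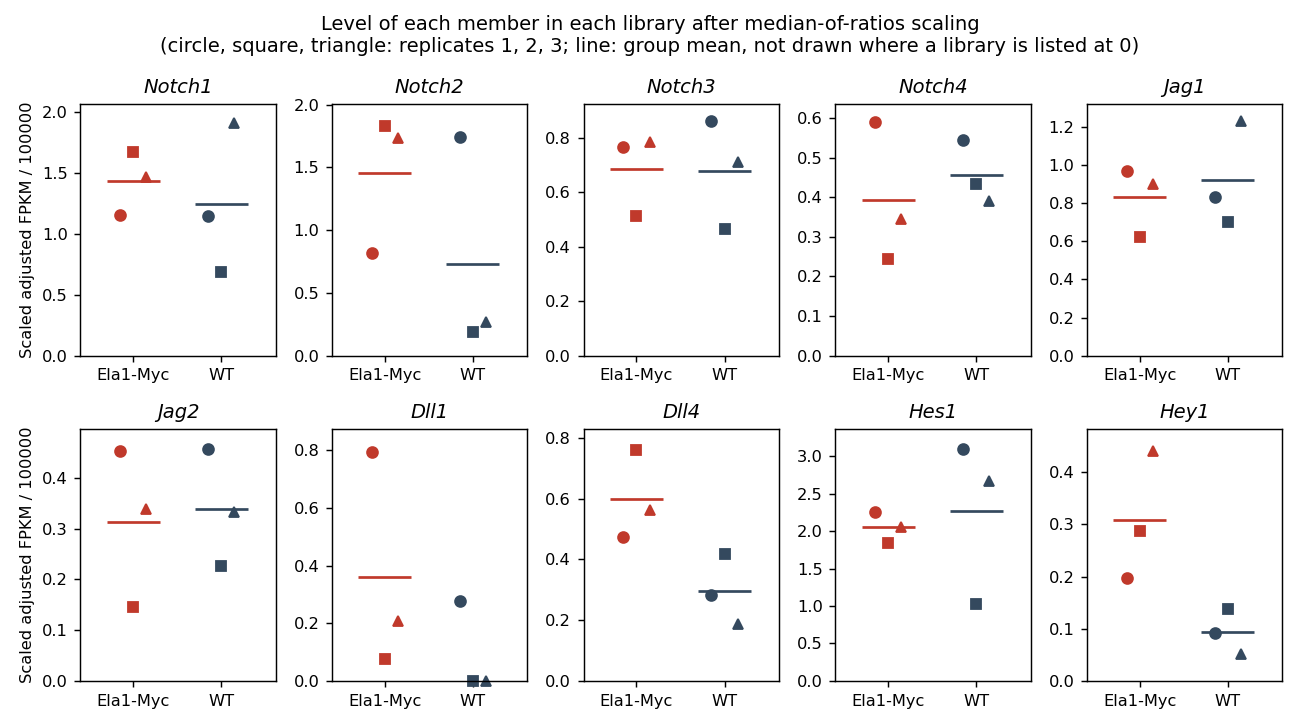
The same 10 genes after median-of-ratios scaling (vertical axes, scaled adjusted FPKM divided by 100000, linear, from 0) in the 3 Ela1-Myc and 3 WT libraries; symbols are replicates and lines are group means, left out where a library is listed at 0. The groups stay apart for Dll4 and Hey1, and for Notch2 WT replicate 1 lies at the level of the Ela1-Myc libraries.

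To test the 6 genes below the filter, all 18853 genes above 0 in some library, less rows that share 1 identical value in each WT library, were fitted without a filter and with a pseudocount of 0.1, a setting chosen after the values had been seen. On the deposited scale 7 of the 10 genes were then called higher, against a background of 49.4% higher and 0.0637% lower. Among the 6, Hey1 changed by 1.97 ± 0.437 (SE, adjusted p = 0.0131), Dll4 by 2.02 ± 0.486 (adjusted p = 0.0162), Dll1 by 2.09 ± 0.675 (adjusted p = 0.0371) and Notch3 by 1.37 ± 0.444 (adjusted p = 0.0374). Notch4 (1.01, adjusted p = 0.104) and Jag2 (1.04, adjusted p = 0.101) did not pass, and Jag1 missed the threshold here (1.25, adjusted p = 0.0629). The Dll1 fit takes the listed zeros as measured values. A planned unfiltered fit with pseudocount 1, which kept the rows of shared WT value, called 6 of the 10 genes higher. Of the 23099 genes in that fit, 8482 were called higher and 25 lower. In it Notch3 passed narrowly (0.66, limma adjusted p = 0.0497) and Dll1 did not pass (0.58, adjusted p = 0.119).

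After median-of-ratios scaling this fit called none of the 10 genes, with 1 at an unadjusted p under 0.05, against a background of 8.71% higher and 2.91% lower. That gene was Hey1, at 1.06 ± 0.324 (SE), with a limma adjusted p of 0.0901. The scaled Dll4 change was 0.84 ± 0.366 (SE, adjusted p = 0.187). The 10 genes had a median of 1.58 on the deposited scale and of 0.15 after scaling, beside 1.28 and 0.17 over all 18853 genes fitted and 1.8 and 0.35 over the 8802 of them with a mean of at least 1. Notch2 (scaled 1.35 ± 0.779), Dll1 (scaled 1.23 ± 0.776), Dll4 and Hey1 lay above both of these medians on both scales. Notch1 lay above the median of the 18853 on both scales, Hes1 and Notch3 lay above it on the deposited scale alone, and Notch4, Jag1 and Jag2 lay below it on both. With each library left out in turn, the scaled fit called 1 of the 10, Notch2 without WT replicate 1 (2.20, adjusted p = 0.0340).

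**Figure D3:**
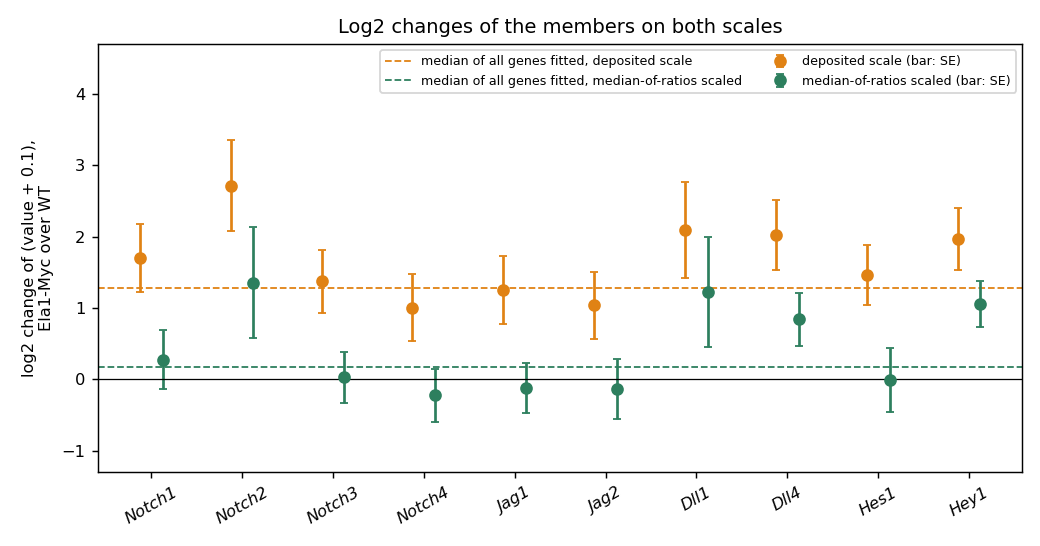
Log2 change of (value + 0.1), Ela1-Myc over WT, for the 10 genes (vertical axis) on the deposited scale and after median-of-ratios scaling; points are limma estimates, bars are standard errors, and dashed lines are the medians of all 18853 genes fitted, 1.28 and 0.17. Notch1, Notch2, Dll1, Dll4 and Hey1 lie above the dashed line on each scale.

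Shares within a library do not depend on a factor common to all genes of that library. How the authors adjusted the values is not stated, so the shares may still depend on that adjustment. The 4 receptors summed to 5.47, 6.70 and 9.26 in Ela1-Myc replicates 1 to 3 and to 1.78, 1.58 and 2.00 in WT replicates 1 to 3. Notch2 made up 24.5%, 42.9% and 40.0% of that sum in Ela1-Myc and 40.6%, 10.6% and 8.06% in WT. WT replicate 1 was again unlike the other WT libraries, and the Notch2 shares overlapped because of it. Notch1 held 34.8%, 39.3% and 33.9% in Ela1-Myc and 26.7%, 38.8% and 58.3% in WT. The Notch1 share kept to a narrow band in Ela1-Myc and ranged more widely in WT.

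Of the shares of the 4 receptors and the 4 ligands, that of Jag1 alone separated the groups. The 4 ligands summed to 4.42, 2.52 and 4.31 in Ela1-Myc replicates 1 to 3 and to 0.769, 1.20 and 1.07 in WT replicates 1 to 3. Jag1 made up 36.1%, 38.9% and 44.9% of that sum in Ela1-Myc and 45.1%, 52.1% and 70.3% in WT, so its share was lower in every Ela1-Myc library, by a narrow margin between Ela1-Myc replicate 3 and WT replicate 1. The WT shares take Dll1 as measured where it is listed at 0. Dll1 was then left out of the sum, a choice made after the values were seen. Jag1 made up 51.2%, 40.8% and 50.1% of the remaining sum in Ela1-Myc and 53.0%, 52.1% and 70.3% in WT. The groups still did not overlap, by a narrow margin between Ela1-Myc replicate 1 and WT replicate 2. The Delta-like share made up the difference in different ways: Dll1 reached 29.5% in Ela1-Myc replicate 1 and Dll4 reached 47.3% in Ela1-Myc replicate 2. The Dll4 share overlapped between the groups, at 17.6%, 47.3% and 27.9% in Ela1-Myc and 15.3%, 31.0% and 10.6% in WT. These shares are a description, and with 3 against 3 libraries an exact two-sided permutation test cannot go below p = 0.1.

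**Figure D4:**
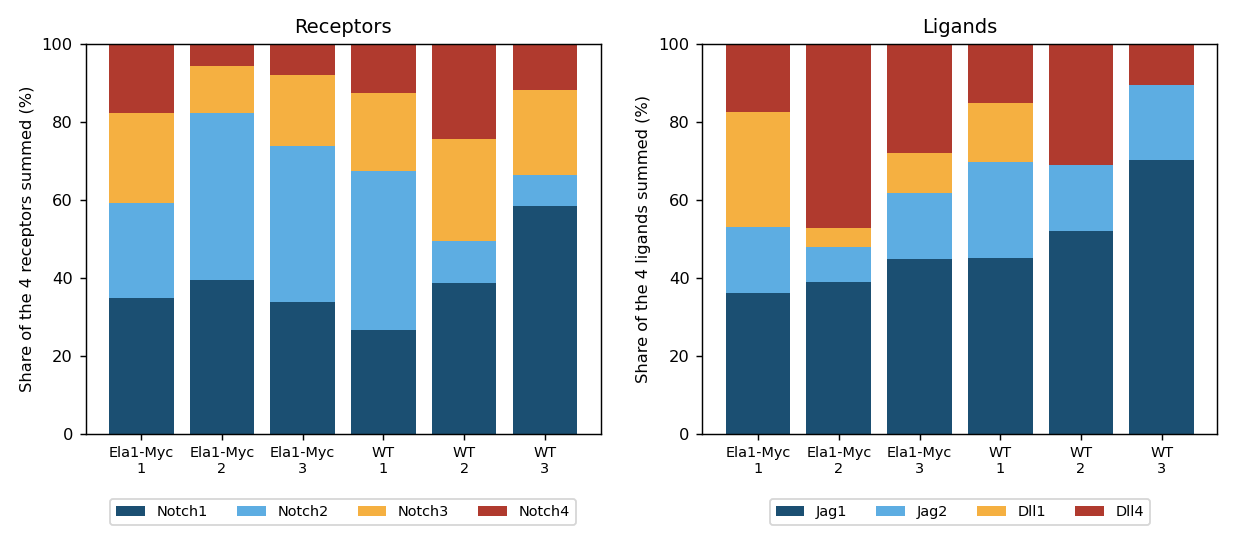
Share of each receptor in the 4 receptors summed and of each ligand in the 4 ligands summed (vertical axes, percent of the summed adjusted FPKM) in each Ela1-Myc and WT library, numbered by replicate. The Jag1 band is between 36.1% and 44.9% in Ela1-Myc libraries and between 45.1% and 70.3% in WT libraries, and the Notch2 band of WT replicate 1 is unlike those of the other WT libraries.

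The rank of each gene within its own library gives a further view that no factor common to a library touches. Among 11198 genes above 0 in all 6 libraries, Hes1 stood at percentile 63.6, 60.0 and 63.7 in Ela1-Myc replicates 1 to 3, against 71.8, 49.6 and 72.6 in WT replicates 1 to 3. Its rank in Ela1-Myc lay between the WT ranks. Hey1 stood at percentile 16.3, 19.4 and 22.6 in Ela1-Myc, against 10.8, 15.3 and 6.47 in WT, higher in every Ela1-Myc library. The share of all genes whose ranks separated in this way was not computed. Dll4 ranks overlapped, at 28.1, 37.9 and 26.5 in Ela1-Myc and 23.9, 31.1 and 16.2 in WT, and so did those of Notch2, at 39.4, 59.8 and 58.2 in Ela1-Myc and 59.7, 18.7 and 20.5 in WT.

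Markers of vascular cells, which are known to carry several of these genes, were set beside them. The 10 endothelial markers summed to 90.3, 93.9 and 84.4 in Ela1-Myc replicates 1 to 3 and to 26.0, 46.6 and 21.0 in WT replicates 1 to 3, with none listed at 0. On the deposited scale 6 of the 10 rose, against 70.2% of all tested genes, and Flt1, Tek, Cdh5 and Emcn did not pass. After scaling limma called none higher (17.1% of all tested genes) and 1 lower (7.1%), and the scaled sums overlapped (54.9, 59.7 and 39.4 in Ela1-Myc, 62.7, 52.2 and 34.4 in WT). Plvap, a protein of capillary diaphragms and the most abundant of them, measured 43.6, 35.0 and 31.3 in Ela1-Myc and 8.46, 20.4 and 5.52 in WT. Pecam1, an endothelial adhesion molecule, measured 10.1, 15.9 and 13.5 in Ela1-Myc and 5.68, 6.74 and 3.99 in WT. Relative to the endothelial sum, Dll4 amounted to 0.861%, 1.27% and 1.42% in Ela1-Myc and 0.451%, 0.801% and 0.542% in WT, and Hey1 to 0.359%, 0.480% and 1.12% in Ela1-Myc and 0.147%, 0.264% and 0.148% in WT. Both ratios were higher in every Ela1-Myc library than in every WT library. The share of all genes that do so relative to this sum was not computed. On the scaled values, 25.1% of 18853 genes were higher in every Ela1-Myc library, Dll4 and Hey1 among them. Notch4 relative to the same sum overlapped, at 1.07%, 0.409% and 0.873% in Ela1-Myc and 0.867%, 0.830% and 1.13% in WT. The part of endothelial cells in these values was not tested.

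Markers of the contractile cells around vessels, in which Notch3 is known, were set beside it. The 7 mural markers analysed summed to 24.9, 37.3 and 38.6 in Ela1-Myc replicates 1 to 3 and to 10.8, 6.66 and 4.78 in WT replicates 1 to 3, with Cspg4 listed at 0 in WT replicate 2. All 5 tested ones rose on the deposited scale (70.2% of all tested genes) and 1 after scaling (17.1%), the signalling regulator Rgs5 (6.80, 7.50 and 10.2 in Ela1-Myc, 0.533, 1.797 and 0.876 in WT, scaled adjusted p = 0.00985). The smooth muscle actin gene Acta2 measured 5.40, 7.98 and 8.17 in Ela1-Myc and 4.06, 1.98 and 1.82 in WT. Notch3 amounted to 5.05%, 2.15% and 4.35% of the mural sum in Ela1-Myc and to 3.31%, 6.22% and 9.07% in WT, and these ranges overlapped. Within WT on the deposited scale, the highest mural sum stood in replicate 1, where Notch3 was lowest. After scaling both were highest in that WT library. The scaled mural sums were 26.0, 7.46 and 7.85 in WT replicates 1 to 3, and scaled Notch3 was 0.861, 0.464 and 0.712. Between the groups, the scaled Notch3 means stood in a ratio of 1.01, while the tested mural markers had a median scaled log2 change of 0.46. The part of mural cells in the Notch3 values was not tested.

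Markers of duct cells, in which Hes1 is known, gave mixed results. Their 7 genes summed to 91.8, 110 and 132 in Ela1-Myc and to 73.2, 153 and 129 in WT replicates 1 to 3. After scaling these sums were 55.8, 70.0 and 61.5 in Ela1-Myc and 177, 171 and 211 in WT, lower in every Ela1-Myc library. The membrane mucin Muc1 measured 55.9, 48.8 and 66.2 in Ela1-Myc and 68.8, 129 and 121 in WT, most of the sum in each WT library. Muc1 was the duct marker that limma called lower after scaling (-2.36, adjusted p = 0.00497). Scaled Muc1 was 34.0, 31.0 and 30.9 in Ela1-Myc and 166, 145 and 199 in WT. After scaling Muc1 and Sox9 were lower in every Ela1-Myc library (background 14.8%), while Krt7, Cftr and Epcam were higher in every one (background 25.1%). The scaled sums therefore do not speak for the whole duct list. The duct keratin Krt19 measured 13.6, 24.4 and 21.6 in Ela1-Myc and 2.69, 13.1 and 4.19 in WT and rose on the deposited scale (adjusted p = 0.0215), with no call after scaling (0.29, adjusted p = 0.600). On the deposited scale 4 of 6 tested duct markers rose, against 70.2% of all tested genes, and after scaling 2 rose and 1 fell, against 17.1% and 7.1%. Krt7, Cftr and Epcam were listed at 0 in WT replicate 1, and Cftr and Epcam in WT replicate 3. Fibroblast markers summed to 367, 558 and 569 in Ela1-Myc and to 72.4, 111 and 47.9 in WT, with Col1a1 and Col1a2 listed at 0 in WT replicates 1 and 3 and Lum in WT replicate 1. In that list 6 of 7 rose on the deposited scale (70.2% of all tested genes) and 3 after scaling (17.1%). The matrix proteoglycan gene Dcn measured 97.3, 248 and 192 in Ela1-Myc and 39.0, 69.1 and 40.99 in WT. The intermediate filament gene Vim measured 63.1, 154 and 101 in Ela1-Myc and 26.4, 16.4 and 1.36 in WT. Macrophage markers summed to 247, 829 and 588 in Ela1-Myc and to 35.0, 46.6 and 0.823 in WT. Of these 7 genes, 2 were listed at 0 in WT replicate 1, 2 in WT replicate 2 and 5 in WT replicate 3. Cd68 was listed at 0 in all 3 WT libraries. All 7 rose on the deposited scale (70.2% of all tested genes) and 4 after scaling (17.1%). The part of these cells in the Jag1, Notch2 and Hes1 values was not tested.

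The rest of the pathway was followed through 55 genes in 6 role lists. On the deposited scale 29 of 38 tested members rose and none fell by limma at the adjusted threshold, against 70.2% and 0.239% of all tested genes, with a median log2 change of 1.17 beside the 1.22 of all tested genes. After scaling 7 rose and 2 fell, against 17.1% and 7.1% of all tested genes, with a median of 0.20 beside 0.22. Of the 7, Mfng, Hdac1, Ctbp2 and Snw1 had at least 1 WT library listed at 0. The balance of calls depended on the scaling: 3 rose and 3 fell after median-of-ratios scaling of genes above 0 in all 6 libraries, and 4 rose and 6 fell after quantile normalization. Without Ela1-Myc replicate 3 the deposited scale gave 19 calls, and the scaled fit gave 3 calls without Ela1-Myc replicate 2 and 3 without Ela1-Myc replicate 3. The genes named are Rbpj, Nrarp, Hes6, Heyl, Lfng and the 2 most abundant genes of each list, and any other gene is marked as chosen after its value was seen.

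Among other ligands and targets, 2 of 9 genes were tested. Hes6, a relative of Hes1 that can oppose it, measured 6.64, 5.77 and 6.02 in Ela1-Myc replicates 1 to 3, against 0.805, 3.27 and 1.53 in WT replicates 1 to 3 (log2 change 1.41, adjusted p = 0.00517, scaled 0.30, adjusted p = 0.386). Heyl, a Notch3 target in mural cells, measured 3.10, 1.34 and 1.87 in Ela1-Myc and 0.351, 1.00 and 1.02 in WT (0.78, adjusted p = 0.0287, scaled -0.02, adjusted p = 0.953). Both rose on the deposited scale and neither passed after scaling. Nrarp, a feedback inhibitor that Notch itself induces, was below the filter at 0.887, 0.574 and 1.27 in Ela1-Myc and 0.473, 0.334 and 0.300 in WT. These groups did not overlap, whereas after scaling Nrarp measured 0.539, 0.365 and 0.592 in Ela1-Myc, against 1.14, 0.375 and 0.492 in WT, with overlap and a ratio of means of 0.746.

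In the list of genes that glycosylate the receptors, 4 of 5 rose on the deposited scale (70.2% of all tested genes) and 1 after scaling (17.1%). Lfng, the Fringe enzyme that biases receptors towards Delta-like ligands, measured 9.46, 14.5 and 15.4 in Ela1-Myc replicates 1 to 3, against 0.236, 10.7 and 0.296 in WT replicates 1 to 3. WT replicate 2 alone carried Lfng near the Ela1-Myc level, and the scaled change of 1.41 did not pass (adjusted p = 0.238). Its relative Rfng measured 14.4, 7.05 and 10.6 in Ela1-Myc and 5.39, 14.8 and 6.50 in WT, with no call on either scale. The scaled call was Mfng, the third Fringe gene, singled out after its value was seen: it measured 4.65, 10.7 and 6.76 in Ela1-Myc, against 0.0108 and 0.0247 in WT replicates 1 and 2, and was listed at 0 in WT replicate 3 (scaled adjusted p = 0.00313).

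Among the genes that cleave the receptors, 6 of 8 tested members rose on the deposited scale (70.2% of all tested genes) and 2 after scaling (17.1%). The most abundant were subunits of gamma-secretase, which frees the intracellular domain. Psenen measured 46.5, 52.4 and 50.4 in Ela1-Myc replicates 1 to 3, against 3.40, 36.6 and 6.21 in WT replicates 1 to 3, and Aph1a measured 20.3, 17.8 and 19.7 in Ela1-Myc and 0.695, 8.76 and 1.44 in WT. Both were even across Ela1-Myc and uneven across WT, and neither passed after scaling (adjusted p = 0.333 and 0.101). The 2 that did, named after their values were seen, were the proteases that shed the receptor's outer part, Adam10 (14.2, 5.02 and 9.32 in Ela1-Myc, 0.129, 2.34 and 0.397 in WT, scaled log2 change 1.60, adjusted p = 0.0479) and Adam17 (3.27, 5.09 and 6.72 in Ela1-Myc, 0.197, 0.703 and 0.0382 in WT, scaled 1.41, adjusted p = 0.0107).

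Of the genes for ligand and receptor endocytosis and breakdown, 6 of 9 tested members rose on the deposited scale (70.2% of all tested genes), and after scaling limma called none higher (17.1%) and 1 lower (7.1%). Dtx1, a ubiquitin ligase of the Deltex family and itself a Notch target in lymphocytes, measured 4.84, 2.05 and 3.05 in Ela1-Myc replicates 1 to 3, against 3.42, 8.04 and 4.43 in WT replicates 1 to 3. It did not pass on the deposited scale (-0.53, adjusted p = 0.245) and fell after scaling (-1.71 ± 0.271 SE, adjusted p = 0.00714), the largest scaled decrease of the 38. The ubiquitin ligase Itch measured 3.07, 3.93 and 4.36 in Ela1-Myc and 1.02, 1.70 and 1.31 in WT and rose on the deposited scale (1.03, adjusted p = 0.00801), while its scaled change was -0.02 (adjusted p = 0.943).

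In the nuclear complex, Rbpj, through which all 4 receptors act, measured 2.97, 4.01 and 5.80 in Ela1-Myc replicates 1 to 3, against 1.10, 1.43 and 0.781 in WT replicates 1 to 3. It rose on the deposited scale (1.30 ± 0.316 SE, adjusted p = 0.00281) and not after scaling (0.26 ± 0.236 SE, adjusted p = 0.441). Relative to Rbpj, Hes1 amounted to 125%, 72.3% and 75.9% in Ela1-Myc and 117%, 63.7% and 209% in WT, with no separation, whereas Hey1 amounted to 10.9%, 11.2% and 16.2% in Ela1-Myc and 3.48%, 8.58% and 3.97% in WT. The Hey1 ratio was higher in each Ela1-Myc library than in each WT library, and the share of all genes that do so relative to Rbpj was not computed. Of the coactivators 4 of 5 tested members rose on the deposited scale (70.2% of all tested genes), and after scaling 1 rose (17.1%) and 1 fell (7.1%). Kat2a, a histone acetyltransferase, measured 10.2, 5.05 and 7.61 in Ela1-Myc and 1.64, 3.31 and 1.20 in WT (scaled adjusted p = 0.452). Snw1, a splicing factor that also binds the Notch complex, measured 5.24, 8.21 and 8.74 in Ela1-Myc and was listed at 0 in all 3 WT libraries. It was the coactivator that rose after scaling, and its call takes those zeros as measured values. The one that fell after scaling, named after its value was seen, was the acetyltransferase gene Kat2b (2.55, 1.77 and 3.63 in Ela1-Myc, 1.78, 2.98 and 2.75 in WT, scaled -1.04 ± 0.196 SE, adjusted p = 0.0134).

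Of the corepressors, 7 of 9 tested members rose on the deposited scale (70.2% of all tested genes) and 3 after scaling (17.1%). The dehydrogenase-like corepressor gene Ctbp1 measured 30.3, 18.7 and 25.5 in Ela1-Myc replicates 1 to 3, against 7.56, 13.2 and 5.76 in WT replicates 1 to 3, and was called on the deposited scale alone (adjusted p = 0.0345, scaled 0.985). The histone deacetylase gene Hdac1 measured 6.02, 12.0 and 12.0 in Ela1-Myc, against 0.745 and 1.38 in WT replicates 1 and 2, and was listed at 0 in WT replicate 3 (scaled adjusted p = 0.0328). The other two scaled calls, named after their values were seen, were Hdac2 (scaled log2 change 1.07, adjusted p = 0.0492) and Ctbp2, which is listed at 0 in WT replicate 1 (scaled log2 change 1.37, adjusted p = 0.0385).

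**Figure D5:**
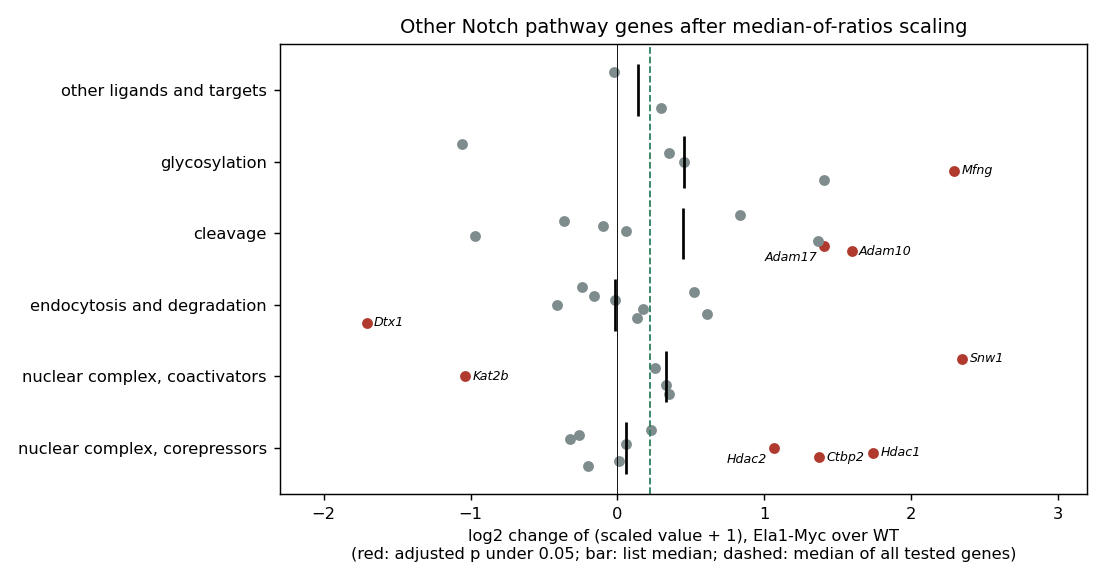
Log2 change of (scaled value + 1), Ela1-Myc over WT (horizontal axis), of the 38 tested genes in the 6 other Notch pathway lists after median-of-ratios scaling; each point is a gene, red points pass an adjusted p of 0.05, bars are list medians and the dashed line is the median of all tested genes, 0.22. Red points are 7 genes to the right of 0 and 2 to the left, Dtx1 and Kat2b.

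The tested genes whose scaled pattern over the 6 libraries was most like that of each tested member were found by the smallest root-mean-square difference of centred log2 values. For Notch1 they were Cmc1 (0.0373) and Siae (0.0670), where the median over all tested genes was 0.541. For Notch2 they were Pml (0.0798) and Ltbp2 (0.0878, median 0.673), both also high in WT replicate 1. Ltbp2 is listed at 0 in WT replicates 2 and 3, and its match takes those zeros as measured values. For Jag1 they were Rreb1 (0.0487) and Ralgapb (0.0497, median 0.474), and for Hes1 Pcid2 (0.0851) and Gatad2b (0.0877, median 0.580). Each pattern rests on 6 values. The 2 genes named for each member lie far under the median because they were picked as the closest of all tested genes.

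Ela1-Myc replicate 2 had an RNA integrity number of 7.2, inside the 7.1 to 7.3 of the WT libraries. Taken by itself, that library lay above all 3 WT libraries in 9 of the 10 genes on the deposited scale, against 71.4% of 18853 genes. The part of RNA integrity in these values was not tested.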

How the data were processed

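The authors deposited 1 adjusted FPKM value per gene and library, per the file headers; no source used here states how it was adjusted. The submitters' processing notes name Cufflinks 2.0.2, TopHat2 2.0.4, Bowtie, CASAVA 1.8, FastQC 0.9.4, affy and the build GRCm38 (mm10). Read counts were not used here, so depth is unknown and no counting interval is printed. The protocol text asks for an RNA integrity number above 8.5, yet 5 of the 6 libraries are labelled with a lower one.

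All values were divided by 100000. The test was limma 3.58.1 (R 4.3.3) on log2(value + 1), two-sided, with an intensity trend and genotype as the sole term, for the 8802 genes averaging at least 1. P-values were Benjamini-Hochberg adjusted over those genes at 0.05. The log2 change understates that of low genes, and the limma step was tested on simulated data. For scaling, each library was divided by its median ratio over the 11198 genes above 0 everywhere. Alternatives were other scalings, pseudocounts and filters, array weights and leaving out each library. Replicate numbers are names in accession order. The 10 genes, the lists and the tests were chosen with earlier results of these data known. Genes named by rule are the 10, Rbpj, Nrarp, Hes6, Heyl and Lfng, the 2 most abundant of each pathway list and of the endothelial, mural, fibroblast and duct lists, and the 2 closest patterns. Other genes are named as the transgene (Myc), for a call after scaling, or as markers listed at 0 or not called. Plots used matplotlib 3.10.9 and Python 3.11.15.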

Additional observations from a re-analysis of the deposited data

How the results depend on the processing

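Scaling decided the calls. Of the 10 genes, 4 were called on the deposited scale, 6 in the unfiltered fit with pseudocount 1 and 7 with pseudocount 0.1. After quantile normalization 1 was called (Jag1, lower). After median-of-ratios scaling 0 were called, alone, with genes at 0 left out or in the unfiltered fit with pseudocount 0.1. With the enzyme genes left out and totals made equal, 0 were called. The other pathway genes gave 29 calls on the deposited scale, all higher, 19 with a pseudocount of 1 on the undivided values, 10 after quantile normalization (4 higher, 6 lower), 9 after median-of-ratios scaling (7 higher, 2 lower), 9 without the enzyme genes (7 higher, 2 lower), 6 scaled with genes at 0 left out (3 higher, 3 lower) and 6 scaled and unfiltered (4 higher, 2 lower). All genes gave 6203 calls, against 9330 unfiltered, 3375 with the pseudocount of 1 on undivided values, 2754 after quantile normalization, 2129 after median-of-ratios scaling, 1992 without the enzyme genes, 1332 scaled with genes at 0 left out and 2191 scaled and unfiltered. The cause of these differences was not tested.

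Log2 changes that turned negative after quantile normalization were those of Notch1 (-0.32), Notch2 (-0.027), Notch3 (-0.37), Notch4 (-0.44), Jag1 (-0.62), Jag2 (-0.39), Dll4 (-0.079), Hes1 (-0.43) and Hey1 (-0.058). After median-of-ratios scaling, with or without genes at 0, Notch4 (-0.070), Jag1 (-0.065), Jag2 (-0.032) and Hes1 (-0.036) turned. In the unfiltered scaled fit with pseudocount 0.1 the same 4 gave -0.22, -0.12, -0.14 and -0.0052, and without the enzyme genes -0.079, -0.056, -0.036 and -0.022. In the quantile, median-of-ratios and enzyme settings, genes below the filter were fitted with pseudocount 1 and without the filter. Notch1, Notch2, Jag1 and Hes1 were fitted with the filter there.

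Leaving out 1 library gave 2 to 4 calls among the 10 genes on the deposited scale and 0 to 1 after scaling; 2 were called without Ela1-Myc replicate 3. For the other pathway genes the range was 19 to 30 on the deposited scale, with 19 without Ela1-Myc replicate 3, and 3 to 12 after scaling. For all genes it was 4554 to 7125 on the deposited scale. After scaling it was 692 to 2396 in the fit of 8802 genes and 887 to 2710 in the unfiltered fit with pseudocount 0.1. Over both scales, leaving out 1 library gave log2 changes of -0.070 to 1.19 for Notch1, -0.20 to 0.81 for Notch3, -0.47 to 0.53 for Notch4, -0.29 to 0.82 for Jag1, -0.36 to 0.53 for Jag2 and -0.49 to 1.16 for Hes1. These ranges pool fits with pseudocount 1 on both scales and with pseudocount 0.1 on the scaled values. Genes below the filter were fitted without it. No library left out reversed Notch2, Dll1, Dll4 or Hey1 on either scale. Hey1 passed after scaling without Ela1-Myc replicate 1 when fitted unfiltered with pseudocount 1 (0.30, adjusted p = 0.0456). No paired analysis was possible because the replicate numbers are names in accession order.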
